A study of Mus musculus with 12 samples.

Results

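The comparison covers kidney tubule cells from mice with both a MYC overexpression construct and deleted Setd2, set against cells from mice with neither lesion. Its members were the 3 MYC Setd2 knockout libraries and the 3 wild type libraries, 6 of the 12 libraries of the series, chosen by their genotype labels. Of 44792 gene symbols in the deposited table, 17019 passed the filter on low counts and were tested. RNA was sequenced from renal primary tubular epithelial cells isolated from the kidney cortex of C57BL/6 mice, and the design text counts 3 mice per genotype. MYC Setd2 knockout mice were Ksp1.3/cre; MYCfl/fl;Setd2fl/fl, so Cre, the floxed MYC construct and the floxed Setd2 alleles were together in 1 animal. MYC mice (Ksp1.3/cre; MYCfl/fl) and Setd2 knockout mice (Ksp1.3/cre; Setd2fl/fl) each carried 1 of the lesions. Wild type mice were Setd2fl/fl without Cre, so the floxed Setd2 allele was shared by all groups other than MYC, and Cre itself was absent from the wild type group only. The Ksp1.3 promoter is that of Ksp-cadherin, which drives Cre in tubule epithelium and not in the other cells of the cortex. The share of the profiled cells that carried the lesions was not tested. The sources used here give no ages.

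SETD2 trimethylates histone H3 at lysine 36 along transcribed genes, and it is among the genes most often mutated in clear cell renal carcinoma. MYC is a transcription factor that binds E-boxes with its partner MAX and is known for raising ribosome production, nucleotide and amino acid synthesis and cell division. Renal tubules answer stress and injury with a fast wave of immediate early genes, many of them controlled by CREB, SRF and AP-1, and with slower injury genes such as Lcn2 and Havcr1.

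Total counts were 9783159, 8889185 and 14314434 in MYC Setd2 knockout 1, 2 and 3, against 32403608, 22997852 and 44227191 in wild type 1, 2 and 3. Mitochondrial ribosomal RNA split the series into 3 sets, with 2909, 2775 and 0.768 CPM (counts scaled to the same library size) in the 3 MYC Setd2 knockout libraries, against 17736, 19622 and 17650 CPM in wild type. Wild type was all in the set above 10000 CPM (set 1), MYC Setd2 knockout 1 and 2 were between (set 2), and MYC Setd2 knockout 3 was in the set below 100 CPM (set 3), so genotype and set cannot be told apart. The sets are defined by this level alone, and the labels do not say what differed between them. Root mean square log2 distances were 0.781 between MYC Setd2 knockout 1 and 2, 2.0 and 2.1 from these to MYC Setd2 knockout 3, and 0.445 to 0.605 among wild type libraries. MYC Setd2 knockout 1 and 3 held Xist (446 and 2341 CPM) and no transcripts of 4 Y-linked genes, while MYC Setd2 knockout 2 and wild type held those Y transcripts (165 CPM, against 150 to 203 CPM). Results are therefore given for the fit of all 12 libraries, for a fit of 8 libraries that leaves out the 4 of set 3 (MYC Setd2 knockout 3 among them), and, where it bears on a result, for a fit with a term for the set. In that last fit the step from set 1 rests on Setd2 knockout 3 alone, which also holds Xist.

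Setd2, the deleted gene (chromosome 9, 110532597 to 110618633 in the deposited GRCm38 coordinates), was at 62.1, 51.1 and 80.6 CPM in MYC Setd2 knockout 1, 2 and 3, against 70.9, 79.8 and 86.4 CPM in wild type. Here and below, CPM per gene are TMM-scaled (library sizes adjusted by a trimmed mean). The ranges overlapped through MYC Setd2 knockout 3, with a log2 fold change of -0.29 ± 0.19 (SE, 3 libraries per group, adjusted p in edgeR = 0.387) that turned to 0.13 with libraries scaled to total counts. Counts are summed over whole genes and the sources used here do not name the floxed exons, so this level does not check the deletion. Myc (chromosome 15, 61985341 to 61990361) was at 6.49, 2.27 and 14 CPM in MYC Setd2 knockout and 3.44, 3.11 and 3.16 CPM in wild type. MYC Setd2 knockout 1 and 3 were above and MYC Setd2 knockout 2 below the wild type range, and the log2 fold change was 1.24 ± 0.53 (adjusted p in edgeR = 0.227). Whether reads of the MYC construct were counted on mouse Myc is not given either.

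In the fit of all 12 libraries 0 genes were called higher (0% of genes tested) and 1 gene, Spock3, was called lower (0.00588%) at an edgeR adjusted p under 0.05. At an unadjusted p under 0.05 there were 2363 genes on the higher side (13.9%) and 1158 on the lower side (6.80%), and limma-voom called 0 in both directions with 1434 and 1626 at an unadjusted p under 0.05 (8.43% and 9.55%). All 3 MYC Setd2 knockout libraries lay above all 3 wild type libraries for 2484 genes (14.6%) and below them for 2606 (15.3%). DESeq2 called 1126 genes higher (6.84%) and 476 lower (2.89%). Without the set 3 libraries, 1524 genes were called higher (8.45%) and 867 lower (4.81%) of 18035, and with the set term 82 were called higher (0.482%) and 215 lower (1.26%). Of the genes called without set 3, 2280 were also tested in the fit of all 12 libraries and 2231 of these had the same sign there. The fit without set 3 and that with the set term shared 64 called genes of the same sign, 26 higher and 38 lower. A fit of the 6 compared libraries by themselves called 277 higher (1.85%) and 131 lower (0.876%) of 14956. Tests on simulated counts with the spread of the 12 libraries recovered 28% of genes changed by 2 on the log2 scale and 65% of genes changed by 4 in this comparison. With the spread of the fit with the set term they recovered 70% and 92%. The simulated counts held no set effect and were fitted by group alone. These shares are therefore not the recovery of the fit with the set term.

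**Figure D1:**
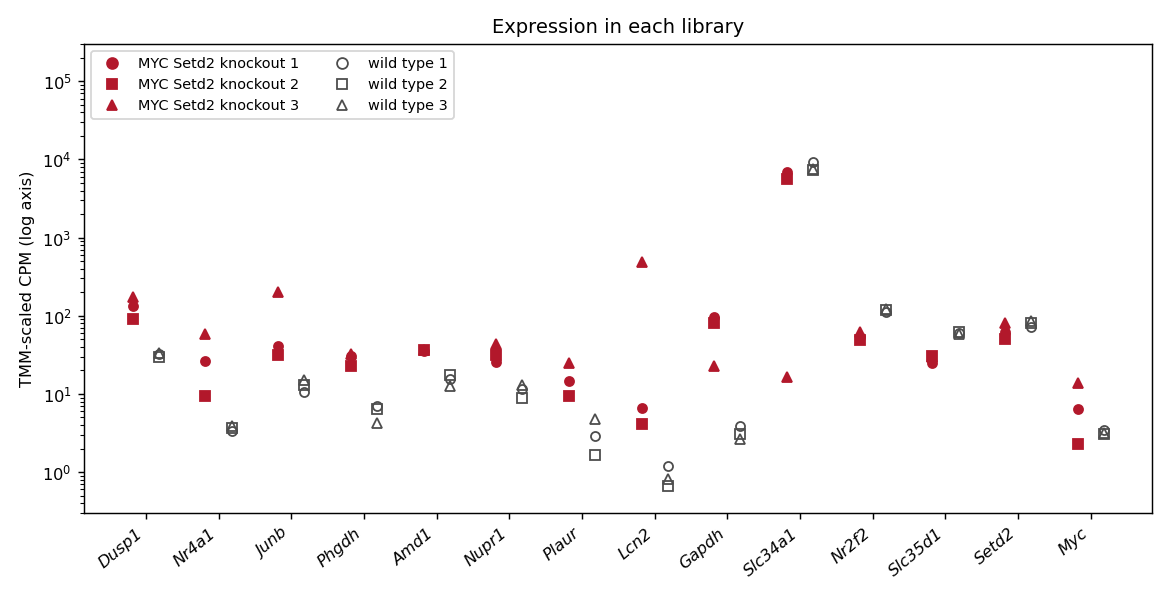
TMM-scaled CPM on a log axis of 14 genes in each of the 6 libraries, with MYC Setd2 knockout (filled) left of wild type (open) and a marker shape per replicate. Dusp1, Nr4a1, Junb, Phgdh, Amd1, Nupr1, Plaur, Lcn2 and Gapdh lie above wild type in all 3 MYC Setd2 knockout libraries, Slc34a1, Nr2f2 and Slc35d1 below it, and Setd2 and Myc overlap.

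Spock3 (chromosome 8, 62951090 to 63357101) was the only gene that passed the test over all 12 libraries, and it fell. It encodes testican-3, a secreted proteoglycan. It had 0, 0 and 0 counts in MYC Setd2 knockout 1, 2 and 3, against 3.17, 2.73 and 1.97 CPM in wild type (200 counts in all). Against a floor of 3 counts over the MYC Setd2 knockout group, this is at least 29.7-fold lower (adjusted p in edgeR = 0.0440). The single-lesion groups lay between, with 1.11, 1.37 and 0.746 CPM in the MYC group and 0.247, 0.261 and 0.218 CPM in Setd2 knockout. The call was lost when any 1 of the 6 compared libraries was left out (adjusted p 0.0707 to 0.320), and it held without the set 3 libraries (adjusted p = 0.00167). With a mean level below the minimum set for named genes, Spock3 is given here because it was the only gene called.

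Immediate early genes, the transcription factors, phosphatases and RNA regulators that cells switch on within minutes of a stimulus, stood higher in MYC Setd2 knockout. Of 21 tested, 17 had an unadjusted p under 0.05 on the higher side and 0 on the lower side, against 13.9% and 6.80% of all genes, with a median log2 fold change of 2.33 against 0.07 over all genes. Without the set 3 libraries 9 of 20 rose and 0 fell, against 8.45% and 4.81% of all genes, with a median of 1.22. The promoters of 3 of those that rose in that fit are shown because CREB, which binds the sequence TGACGTCA (the CRE), and MYC, which binds CACGTG (the E-box), have motifs that can be looked up in them. Each is the stretch of 250 bases before the RefSeq start in GRCm38.p6, 5′ to 3′ on the gene's strand, with CACGTG, TGACGTCA and the short CRE core TGACG or its reverse complement CGTCA in capitals; a full CRE contains both short cores. Dusp1 lies at chr17:26508473-26508722 (minus strand), Nr4a1 at chr15:101266596-101266845 (plus strand, 12633 bases from the gene start in the deposited table) and Junb at chr8:84978749-84978998 (minus strand).
Dusp1: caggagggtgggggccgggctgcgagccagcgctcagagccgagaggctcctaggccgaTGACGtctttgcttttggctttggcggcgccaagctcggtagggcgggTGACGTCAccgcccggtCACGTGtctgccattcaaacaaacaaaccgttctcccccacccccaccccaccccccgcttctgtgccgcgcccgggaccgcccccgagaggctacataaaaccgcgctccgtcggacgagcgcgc
Nr4a1: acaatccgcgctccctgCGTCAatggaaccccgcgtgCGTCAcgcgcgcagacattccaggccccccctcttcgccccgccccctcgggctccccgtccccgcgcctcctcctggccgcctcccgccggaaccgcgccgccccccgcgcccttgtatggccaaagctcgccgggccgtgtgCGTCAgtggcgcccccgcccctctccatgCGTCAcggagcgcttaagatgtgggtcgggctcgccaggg
Junb: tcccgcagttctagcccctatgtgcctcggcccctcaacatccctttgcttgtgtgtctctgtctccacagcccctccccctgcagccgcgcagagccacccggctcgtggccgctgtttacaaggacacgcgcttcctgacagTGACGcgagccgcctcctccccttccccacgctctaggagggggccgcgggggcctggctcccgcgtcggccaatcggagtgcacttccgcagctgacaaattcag
Dusp1 holds 1 E-box, 1 full CRE and 3 short cores counted on both strands, Nr4a1 holds 4 short cores, and Junb holds 1. Among the 17 list members with a RefSeq promoter, 10 held a short core (58.8%), 2 a full CRE (11.8%) and 4 an E-box (23.5%). Over the promoters of 10805 tested genes these shares were 25.6%, 2.53% and 8.32%. Among 22 promoters of the injury list described below, 1 held a short core (4.55%) and 0 a full CRE or an E-box, and among 26 of the synthesis list 9 held a short core (34.6%), 0 a full CRE and 5 an E-box (19.2%).

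Dusp1, a phosphatase that switches off MAP kinases, had the lowest p among named genes on the higher side. It was at 132, 89.7 and 173 CPM in MYC Setd2 knockout 1, 2 and 3, against 32.3, 29.7 and 33.8 CPM in wild type. Every MYC Setd2 knockout library was above every wild type library, with a log2 fold change of 2.04 ± 0.29 (SE, n = 3 per group) and an edgeR adjusted p of 0.130 over all 12 libraries. Without the set 3 libraries Dusp1 rose (1.81 ± 0.18, adjusted p = 3.76e-04).

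Nr4a1, an orphan nuclear receptor induced by cyclic AMP and growth factors, was at 26.1, 9.47 and 57.9 CPM in MYC Setd2 knockout, against 3.4, 3.66 and 3.9 CPM in wild type. Junb, an AP-1 subunit, was at 41.3, 31.8 and 199 CPM in MYC Setd2 knockout, against 10.7, 12.8 and 15.3 CPM in wild type. For both genes the groups did not overlap and MYC Setd2 knockout 3 was the highest library. Without set 3, Nr4a1 rose by 2.29 and Junb by 1.51 on the log2 scale (adjusted p in edgeR = 0.00451 and 0.00139). Junb also rose with the set term, by 3.58 (adjusted p = 0.0270), where Nr4a1 had an adjusted p of 0.0603. Atf3, a stress-induced repressor of the CREB family, was at 11, 1.89 and 79.9 CPM in MYC Setd2 knockout and 0.939, 1.47 and 0.598 CPM in wild type. It rose in the fit without set 3 (2.73, adjusted p = 0.0265) and in the fit with the set term (5.91, adjusted p = 0.0402). Klf2, Klf4, Ier2, Zfp36 and Btg2 also rose without set 3, by 1.36, 1.08, 0.89, 1.05 and 1.58 on the log2 scale.

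Fos and Egr1, the classical members of the response, varied within the groups. Fos was at 94.2, 34.1 and 42.7 CPM in MYC Setd2 knockout, against 5.01, 31.3 and 3.87 CPM in wild type, where wild type 2 came close to the lowest MYC Setd2 knockout library. Egr1 was at 34.1, 18.1 and 205 CPM in MYC Setd2 knockout and 7.67, 16.8 and 4.24 CPM in wild type, again with wild type 2 the highest of its group. Fosb (29.2, 9.21 and 7.14 CPM in MYC Setd2 knockout, against 1.06, 14.6 and 0.256 CPM in wild type) and Jun (128, 66.3 and 231 CPM in MYC Setd2 knockout, against 50.5, 78.6 and 43.6 CPM in wild type) overlapped between the groups, and none of the 4 genes passed the test in any of the 3 fits (adjusted p in edgeR = 0.241, 0.152, 0.459 and 0.156 over all 12 libraries). The list median, taken per library and set against the wild type mean, was 1.59, 0.90 and 2.97 in MYC Setd2 knockout 1, 2 and 3 on the log2 scale, and -0.37, 0.37 and 0.00 in wild type 1, 2 and 3.

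Genes that injured tubules switch on stood higher as well, with a part of the list high in MYC Setd2 knockout 3 alone. Of 30 tested, 22 had an unadjusted p under 0.05 on the higher side and 0 on the lower side, against 13.9% and 6.80% of all genes, with a median log2 fold change of 1.82. Without set 3 the median was 0.72, and 13 of 29 genes rose and 0 fell, against 8.45% and 4.81% of all genes. Per library the list median was 0.22, 0.40 and 2.50 above the wild type mean in MYC Setd2 knockout 1, 2 and 3.

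Lcn2, the secreted iron carrier NGAL used as a marker of acute kidney injury, was at 6.6, 4.17 and 486 CPM in MYC Setd2 knockout, against 1.21, 0.655 and 0.826 CPM in wild type. All 3 MYC Setd2 knockout libraries were above wild type, with MYC Setd2 knockout 3 the highest, and Lcn2 rose by 2.58 on the log2 scale without set 3 (adjusted p in edgeR = 0.00211). Plaur, the urokinase receptor, was at 14.5, 9.47 and 25.1 CPM in MYC Setd2 knockout, against 2.93, 1.64 and 4.81 CPM in wild type. Its groups did not overlap, and it rose by 1.92 without set 3 (adjusted p = 0.0158). Anxa3, a membrane-binding annexin, and the fibrinogen chain genes Fga, Fgb and Fgg rose in both the fit without set 3 and the fit with the set term. Anxa3 was at 36.8, 37.6 and 54.9 CPM in MYC Setd2 knockout, against 11.3, 13.9 and 16.6 CPM in wild type, and Fga at 38.1, 56 and 598 CPM in MYC Setd2 knockout, against 25.9, 26.5 and 32.6 CPM in wild type.

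Other injury genes were at or near wild type in MYC Setd2 knockout 1 and 2. Havcr1, which encodes the phosphatidylserine receptor KIM-1, was at 0, 0.757 and 23.2 CPM in MYC Setd2 knockout, against 0.313, 0.546 and 0.37 CPM in wild type. Krt20, a keratin of injured proximal tubule, was at 0.44, 0.126 and 81.3 CPM in MYC Setd2 knockout and 0.469, 0.382 and 0.484 CPM in wild type. Sox9, a transcription factor of tubular repair, was at 1.1, 0.757 and 18.9 CPM in MYC Setd2 knockout and 0.665, 0.655 and 0.854 CPM in wild type. In each of the 3 genes only MYC Setd2 knockout 3 exceeded the highest wild type library by more than 2-fold, and without that library's set the edgeR adjusted p was 0.945, 0.589 and 0.619.

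Markers of macrophages and other myeloid cells moved with these lists. Their summed level over 23 tested markers was 420.0, 259 and 453 CPM in MYC Setd2 knockout, against 64.9, 63.2 and 96.5 CPM in wild type, so the groups did not overlap. Of the 23, 13 had an unadjusted p under 0.05 on the higher side, against 13.9% of all genes, and without set 3 15 of 22 rose and 0 fell, against 8.45% and 4.81%, with a median log2 fold change of 1.55. Emr1, which encodes the macrophage antigen F4/80, was at 2.09, 1.14 and 1.98 CPM in MYC Setd2 knockout and 0.587, 0.273 and 0.684 CPM in wild type, so it was at 0 in no library. The part of these cells in the immediate early and injury results was not tested. In bulk libraries, more cells of a type and more RNA per cell cannot be told apart.

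Lyz2, the lysozyme of macrophages and neutrophils, was at 168, 98.5 and 102 CPM in MYC Setd2 knockout, against 11.3, 12.7 and 27.4 CPM in wild type. S100a9, a calcium-binding protein abundant in neutrophils, was at 31, 29.2 and 18.2 CPM in MYC Setd2 knockout and 0.352, 1.64 and 1.74 CPM in wild type. Both were above wild type in all 3 MYC Setd2 knockout libraries and rose without set 3, Lyz2 by 2.96 and S100a9 by 4.6 on the log2 scale (adjusted p in edgeR = 0.00135 and 4.30e-04). The complement subunit genes C1qa and C1qb, which macrophages of the kidney express, rose by 1.29 and 1.53 in that fit. Lymphocyte markers summed to 78.7, 73.3 and 17.3 CPM in MYC Setd2 knockout and 23.4, 22.9 and 18.9 CPM in wild type, where MYC Setd2 knockout 3 was the lowest of the 6.

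**Figure D2:**
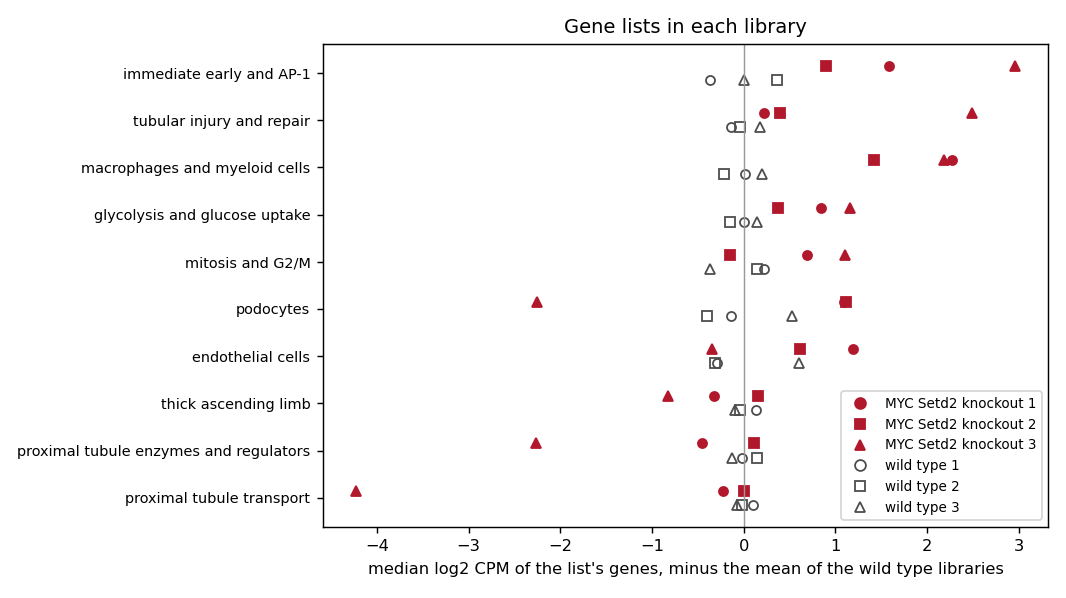
Median log2 CPM of 10 gene lists in each of the 6 libraries, less the wild type mean, with MYC Setd2 knockout filled and wild type open. MYC Setd2 knockout 3 stands apart from the other 2 MYC Setd2 knockout libraries in the injury, proximal tubule and podocyte lists, and all 3 are above wild type in the immediate early and macrophage lists.

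Among genes of the anabolic programs that MYC is known to drive, a few rose and most did not pass the test. Of 32 tested genes of serine, one-carbon, nucleotide and polyamine synthesis, 5 had an unadjusted p under 0.05 on the higher side and 0 on the lower side. The shares of all genes were 13.9% and 6.80%, so the higher side was near the background. The median log2 fold change was 0.07, equal to that of all genes. Without set 3, 3 of 32 rose, near the background share of 8.45%, and the median was 0.00.

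The 3 were Phgdh, the first enzyme of serine synthesis, Impdh2, which makes the precursor of guanine nucleotides, and Amd1, which makes the aminopropyl donor of polyamines. Phgdh was at 30.7, 22.5 and 32.6 CPM in MYC Setd2 knockout, against 6.92, 6.5 and 4.19 CPM in wild type. Its lowest MYC Setd2 knockout library was well above the highest wild type library, with a log2 fold change of 2.28 ± 0.34 (SE, 3 libraries per group, adjusted p in edgeR = 0.130 over all 12 libraries and 0.0022 without set 3). Amd1 was at 35.3, 36.5 and 36.5 CPM in MYC Setd2 knockout, against 15.5, 17.6 and 12.6 CPM in wild type, and Impdh2 at 17.6, 15.5 and 39.3 CPM in MYC Setd2 knockout, against 6.26, 5.68 and 4.16 CPM in wild type. Neither overlapped, and without set 3 they rose by 1.26 and 1.65 (adjusted p = 0.00177 and 0.00268). Psat1, the next enzyme after Phgdh, was at 81.1, 66.1 and 49.8 CPM in MYC Setd2 knockout and 78.8, 72.4 and 65.9 CPM in wild type and overlapped. Odc1, the rate-limiting enzyme of polyamine synthesis and a textbook MYC target, was at 397, 1068 and 174 CPM in MYC Setd2 knockout and 603, 868 and 385 CPM in wild type and overlapped too.

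Of 19 tested genes of the MYC, MAX and MXD network, 6 had an unadjusted p under 0.05 on the higher side and 0 on the lower side. The shares of all genes were 13.9% and 6.80%. The median log2 fold change was 0.18 over all 12 libraries and -0.30 without set 3. Of 18 genes tested without set 3, 1 rose and 0 fell, which is no larger a share than the 8.45% of all genes. It was Ruvbl1, an ATPase that MYC recruits, at 21.2, 17.5 and 18.7 CPM in MYC Setd2 knockout, against 10.5, 10.3 and 8.69 CPM in wild type, with a log2 fold change of 1.0 ± 0.17 (adjusted p in edgeR = 0.00618). Max was at 52.9, 47 and 87.8 CPM in MYC Setd2 knockout and 41.5, 40.9 and 40.7 CPM in wild type, above wild type in every library but with an adjusted p of 0.197 without set 3.

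Ribosome biogenesis differed between the MYC Setd2 knockout libraries. Of 39 tested genes, 8 had an unadjusted p under 0.05 on the higher side and 0 on the lower side, against 13.9% and 6.80% of all genes, and the median per library was -0.03, 0.03 and 1.74 from the wild type mean in MYC Setd2 knockout 1, 2 and 3. Without set 3, 3 of 39 rose and 1 fell, a share near the 8.45% and 4.81% of all genes. Of these Fbl, the methyltransferase of box C/D particles, rose by 1.45, Ddx18 by 0.86 and Npm1 by 0.67, and Ncl, the nucleolar RNA-binding protein nucleolin, fell by 0.53. Ncl was at 67.5, 71.8 and 1499 CPM in MYC Setd2 knockout and 101, 107 and 97.2 CPM in wild type, so MYC Setd2 knockout 3 was on the other side of wild type from the other 2 libraries.

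Genes of cytosolic ribosomal proteins had the highest median of the 47 lists over all 12 libraries, 2.67 over 77 genes, with 72 at an unadjusted p under 0.05 on the higher side, and 57 of 75 rose without set 3 (13.9% and 8.45% of all genes). These genes have many near-identical pseudogene copies, 35 of the 77 overlap another gene of the table, and the levels followed the sets, so they are uncertain as measures of expression. Rpl3 was at 8.58, 6.18 and 932 CPM in MYC Setd2 knockout and 0.508, 0.71 and 0.199 CPM in wild type, while Rplp0 was at 669.6, 695 and 2058 CPM in MYC Setd2 knockout and 447, 357 and 302 CPM in wild type. With the set term 0 of the 77 were called, and the median was 0.96. Gapdh, which also has many copies, was at 97.5, 80.5 and 23 CPM in MYC Setd2 knockout and 3.87, 3.06 and 2.68 CPM in wild type, and its log2 fold change was 4.38 over all 12 libraries, 4.81 without set 3 and -0.92 with the set term. The same uncertainty holds for the named genes Rps10, Rps15a-ps7 and Gstm2-ps1.

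In glycolysis, 9 of 20 tested genes had an unadjusted p under 0.05 on the higher side and 0 on the lower side, against 13.9% and 6.80% of all genes. Without set 3, 5 of 20 rose, against 8.45% of all genes, and these were Gapdh, Eno1, Pkm, Pgk1 and Pgam1. Eno1, enolase, was at 563, 331 and 203 CPM in MYC Setd2 knockout, against 165, 118 and 121 CPM in wild type. Pkm, pyruvate kinase, was at 325, 218 and 568 CPM in MYC Setd2 knockout, against 133, 115 and 144 CPM in wild type. For both, the groups did not overlap, and the rises without set 3 were 1.74 and 1.07 (adjusted p in edgeR = 0.0149 and 0.00722). With the set term 0 of the 20 were called and the list median was -0.21. Mif, a cytokine with tautomerase activity and a named gene by its p, was at 276, 185 and 216 CPM in MYC Setd2 knockout and 90.9, 47.9 and 87.3 CPM in wild type, and it rose without set 3 (1.62, adjusted p = 0.0064). Over 18 alternatives its log2 fold change was 0.64 to 1.96.

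Few genes of the cell cycle lists passed a test, and their levels differed between the MYC Setd2 knockout libraries. Of 39 tested genes of mitosis, 5 had an unadjusted p under 0.05 on the higher side and 0 on the lower side, against 13.9% and 6.80% of all genes, and 0 were called without set 3 (38 tested) or with the set term. The median log2 fold change was 0.55 over all 12 libraries, 0.19 without set 3 and 1.81 with the set term. Per library the median was 0.69, -0.15 and 1.10 from the wild type mean in MYC Setd2 knockout 1, 2 and 3, and 23, 7 and 30 of the 39 genes were above every wild type library there. Of 38 tested genes of DNA replication and S phase, 4 had an unadjusted p under 0.05 on the higher side and 1 on the lower side, and the medians in the 3 fits were 0.29, 0.16 and 0.65. Without set 3, 1 of 37 rose and 1 fell, against 8.45% and 4.81% of all genes. Mki67, a marker of cycling cells, was at 3.85, 2.65 and 9.01 CPM in MYC Setd2 knockout and 3.56, 5.84 and 5.53 CPM in wild type, and Top2a, which untangles DNA in dividing cells, at 5.94, 2.78 and 4.06 CPM in MYC Setd2 knockout and 2.89, 4.53 and 2.34 CPM in wild type. Both overlapped. Inhibitors of the cycle and p53 targets were on the higher side for 10 of 25 genes and on the lower side for 2 at an unadjusted p under 0.05, against 13.9% and 6.80% of all genes. Without set 3, 6 of 24 rose and 1 fell, against 8.45% and 4.81%. Cdkn1a, which encodes the CDK inhibitor p21, was at 19.4, 9.34 and 136 CPM in MYC Setd2 knockout, against 4.85, 5.51 and 5.16 CPM in wild type. The groups did not overlap, and Cdkn1a rose by 1.49 without set 3 (adjusted p in edgeR = 0.0151). Phlda3, a p53 target that restrains AKT, was at 6.38, 5.68 and 7.63 CPM in MYC Setd2 knockout and 2.07, 1.91 and 2.42 CPM in wild type, again with no overlap, and rose by 1.5 (adjusted p = 0.00883). Mdm2, the p53 ubiquitin ligase and itself a p53 target, was at 49.6, 61.3 and 59.98 CPM in MYC Setd2 knockout and 58.6, 64.4 and 53 CPM in wild type and overlapped. Nupr1, a stress-induced chromatin regulator, was at 26, 31.1 and 43.1 CPM in MYC Setd2 knockout, against 11.7, 8.84 and 13.1 CPM in wild type, and rose without set 3 (1.35, adjusted p = 0.00281).

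The defining genes of the proximal tubule, the main tubule segment of the cortex, were abundant in 5 of the 6 libraries. The 37 tested transport genes summed to 26265, 25063 and 2253 CPM in MYC Setd2 knockout, against 34714, 31076 and 32240.0 CPM in wild type. MYC Setd2 knockout 3 was far below the other libraries, and MYC Setd2 knockout 1 and 2 were also below the lowest wild type sum. The list median was -0.22, 0.00 and -4.23 from the wild type mean in MYC Setd2 knockout 1, 2 and 3. Slc34a1, the phosphate carrier of the brush border, was at 7000.4, 5623 and 16.6 CPM in MYC Setd2 knockout and 9276, 7299 and 7461 CPM in wild type. Lrp2, the endocytic receptor megalin, was at 2695, 2372 and 127 CPM in MYC Setd2 knockout and 3311, 3664 and 4580.0 CPM in wild type. For both, all 3 MYC Setd2 knockout libraries were below wild type, but neither gene passed the test over all 12 libraries (adjusted p in edgeR = 0.711 and 0.464) or without set 3 (0.285 and 0.142).

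Without set 3 only Slc22a6, the organic anion carrier OAT1, fell among these 37 genes, at 527, 892 and 24.9 CPM in MYC Setd2 knockout, against 1436, 1278 and 1396 CPM in wild type (-0.93, adjusted p in edgeR = 0.0366). With the set term 7 of 37 fell and 0 rose, against 1.26% and 0.482% of all genes. Among those that fell were the sodium-proton exchanger gene Slc9a3 (-2.26), the amino acid carrier gene Slc6a19 (-2.32) and the water channel gene Aqp1 (-2.55). Of 30 tested proximal tubule enzymes and regulators, 2 rose and 0 fell without set 3, against 8.45% and 4.81% of all genes. With the set term 6 of these 30 fell and 0 rose. Their median was -0.68 over all 12 libraries and -0.21 without set 3.

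Some proximal tubule genes followed Xist and not the set. Kap, an androgen-regulated kidney protein, was at 60.3, 15530.0 and 321 CPM in MYC Setd2 knockout and 22726, 21422 and 13967 CPM in wild type. Slc7a13, an aspartate and glutamate carrier of the late proximal tubule, was at 0.44, 403 and 0 CPM in MYC Setd2 knockout and 466, 582 and 216 CPM in wild type. Cyp2e1, a cytochrome P450, was at 149, 2188 and 72.7 CPM in MYC Setd2 knockout and 2037, 2362 and 2371 CPM in wild type. In all 3 genes MYC Setd2 knockout 1 and 3, the libraries with Xist, were low, while MYC Setd2 knockout 2 was inside the wild type range. These genes were chosen after their values were seen. Within MYC Setd2 knockout the split by Xist rests on 1 library without it, and no wild type library holds Xist. The part of sex in these values was not tested.

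In the thick ascending limb, 17 tested genes had a median log2 fold change of -0.20, which turned to 0.09 when libraries were scaled to total counts and was -0.15 without set 3 and -1.94 with the set term. Without set 3, 1 of 16 fell, and with the set term 3 of 17 fell, against 4.81% and 1.26% of all genes. Umod, the urinary protein uromodulin, was at 2430.5, 1454 and 2514 CPM in MYC Setd2 knockout and 3394, 2180.3 and 2226 CPM in wild type and overlapped. Of 15 tested genes of principal cells of the collecting duct, 2 fell and 1 rose without set 3, against 4.81% and 8.45% of all genes. With the set term 4 fell and 0 rose, against 1.26% and 0.482%. The list median was -0.50 over all 12 libraries and -0.31 without set 3. The 2 genes that fell without set 3 encode water channels, and both also fell with the set term. Aqp3 was at 82.9, 66 and 13.9 CPM in MYC Setd2 knockout, against 118, 102 and 109 CPM in wild type, and fell by 0.55 without set 3 (adjusted p in edgeR = 0.0425). Aqp4 was at 2.75, 1.64 and 1.81 CPM in MYC Setd2 knockout, against 7.08, 7.64 and 7.61 CPM in wild type, and fell by 1.73 (adjusted p = 0.00644). Aqp2, the vasopressin-regulated channel, was at 119, 73.7 and 43.1 CPM in MYC Setd2 knockout and 153, 105 and 117 CPM in wild type and overlapped.

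Markers of cells outside the tubule also moved. Podocyte markers summed to 2966, 2721 and 204 CPM in MYC Setd2 knockout, against 1067, 997 and 1899.8 CPM in wild type, so MYC Setd2 knockout 1 and 2 were above every wild type library and MYC Setd2 knockout 3 below every one. Of 14 tested markers, 6 rose without set 3, against 8.45% of all genes. Endothelial markers summed to 1888, 1048 and 585 CPM in MYC Setd2 knockout and 528, 474 and 991 CPM in wild type, and 7 of 17 rose without set 3, Egfl7 by 1.97 (adjusted p = 0.0025). Klf2, given above among immediate early genes, is also a gene of endothelial cells, and the part of these markers in its value was not tested. Fibroblast and mural markers summed to 238, 258 and 524 CPM in MYC Setd2 knockout and 255, 185 and 300.3 CPM in wild type, and 0 of 17 were called without set 3.

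Beside Spock3, no gene on the lower side passed the test over all 12 libraries, and the 12 named by lowest p each had an edgeR adjusted p of 0.130. Nr2f2, the nuclear receptor COUP-TFII of venous endothelium and mesenchyme, was at 53.2, 49.2 and 61.7 CPM in MYC Setd2 knockout, against 113, 120.2 and 124 CPM in wild type. Slc35d1, a nucleotide-sugar carrier of the endoplasmic reticulum, was at 25.2, 30.5 and 29.5 CPM in MYC Setd2 knockout, against 61, 61.9 and 59.1 CPM in wild type. In both genes all 3 MYC Setd2 knockout libraries were close to each other and below wild type, with log2 fold changes of -1.12 ± 0.20 and -1.09 ± 0.20 (SE, n = 3 per group). Both fell without set 3 (adjusted p = 9.80e-04 and 0.00308).

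Mcoln3, a lysosomal calcium channel, was at 6.71, 5.05 and 5.6 CPM in MYC Setd2 knockout, against 14.9, 18 and 13.8 CPM in wild type. It fell without set 3 (-1.38, adjusted p in edgeR = 0.00373) and also with the set term (-2.18, adjusted p = 0.0311). Tnfsf10, the death ligand TRAIL, was at 28.2, 41.3 and 29.7 CPM in MYC Setd2 knockout and 56.3, 74.5 and 74.5 CPM in wild type, Fign, a microtubule-severing ATPase, at 3.19, 4.67 and 2.64 CPM in MYC Setd2 knockout and 10.1, 9.94 and 12.6 CPM in wild type, and Rec8, a meiotic cohesin subunit, at 3.63, 6.69 and 4.72 CPM in MYC Setd2 knockout and 12.3, 11.1 and 11.2 CPM in wild type. None of these overlapped, and all 3 fell without set 3, with log2 fold changes of -0.96, -1.46 and -1.15. Ndufs6, a subunit of respiratory complex I, was at 74, 88.9 and 59.2 CPM in MYC Setd2 knockout and 148, 133 and 139.8 CPM in wild type, and Tomm7, of the mitochondrial import pore, at 53.5, 58.6 and 43.9 CPM in MYC Setd2 knockout and 88.3, 96.2 and 79.2 CPM in wild type. Both fell without set 3 (-0.77 and -0.63, adjusted p = 0.0112 and 0.0228). ND6, the mitochondrial transcript read from the strand opposite to the other mitochondrial mRNAs, was at 66.1, 59.96 and 80.1 CPM in MYC Setd2 knockout and 1759, 1429.9 and 737 CPM in wild type. It overlaps another gene of the table and the strand setting of the counting is not stated, so its value is uncertain.

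The fit without set 3 and the fit with the set term shared 38 genes that fell, among them the transcription factor genes Maf and Hlf. Maf, a factor of proximal tubule differentiation, was at 305, 287 and 50.03 CPM in MYC Setd2 knockout, against 486, 632 and 657 CPM in wild type. Hlf, a clock-output factor, was at 87.7, 64 and 11.1 CPM in MYC Setd2 knockout, against 157, 162 and 179.9 CPM in wild type. For both, all 3 MYC Setd2 knockout libraries were below wild type and MYC Setd2 knockout 3 was the lowest, and they fell without set 3, with log2 fold changes of -0.99 and -1.12 (adjusted p in edgeR = 0.00791 and 0.0222). Pth1r, the parathyroid hormone receptor, had the same pattern with 443, 414 and 34.1 CPM in MYC Setd2 knockout and 730.2, 567 and 694 CPM in wild type, and it also fell in both fits. These 3 genes were picked from the 38 after their values were seen. In the list of kidney lineage factors, which holds none of them, 2 of 19 fell without set 3 and 0 with the set term, against 4.81% and 1.26% of all genes.

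Other named genes by lowest p on the higher side were not in the lists above. Tuba1a, an alpha-tubulin, was at 50.8, 31.4 and 31.7 CPM in MYC Setd2 knockout, against 6.88, 5.9 and 11.4 CPM in wild type. Kpna2, a nuclear import receptor, was at 4.29, 3.79 and 8.13 CPM in MYC Setd2 knockout, against 1.13, 1.53 and 1.11 CPM in wild type. For both, all 3 MYC Setd2 knockout libraries were above wild type, with log2 fold changes of 2.23 ± 0.43 and 2.11 ± 0.41 (SE, n = 3 per group) and an edgeR adjusted p of 0.130 for each over all 12 libraries. The extracellular matrix gene Emilin2 was at 8.47, 3.53 and 7.63 CPM in MYC Setd2 knockout and 1.09, 0.71 and 1.65 CPM in wild type, and Ltc4s, the synthase of leukotriene C4, at 9.13, 7.57 and 12 CPM in MYC Setd2 knockout and 2.7, 2.84 and 3.25 CPM in wild type. Mcrs1 was at 40.9, 45.2 and 40.7 CPM in MYC Setd2 knockout and 17.7, 13.8 and 14.5 CPM in wild type. All 5 rose without set 3, by 2.35, 1.71, 2.36, 1.52 and 1.5 in the order given. The size depended on the fit: over 18 alternatives the lowest log2 fold change was 0.25 for Mcrs1 and 0.64 for Tuba1a. For Kpna2, Emilin2 and Ltc4s the lowest was 1.53, 1.58 and 1.35. Ltc4s and Mcrs1 overlap another gene of the table.

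**Figure D3:**
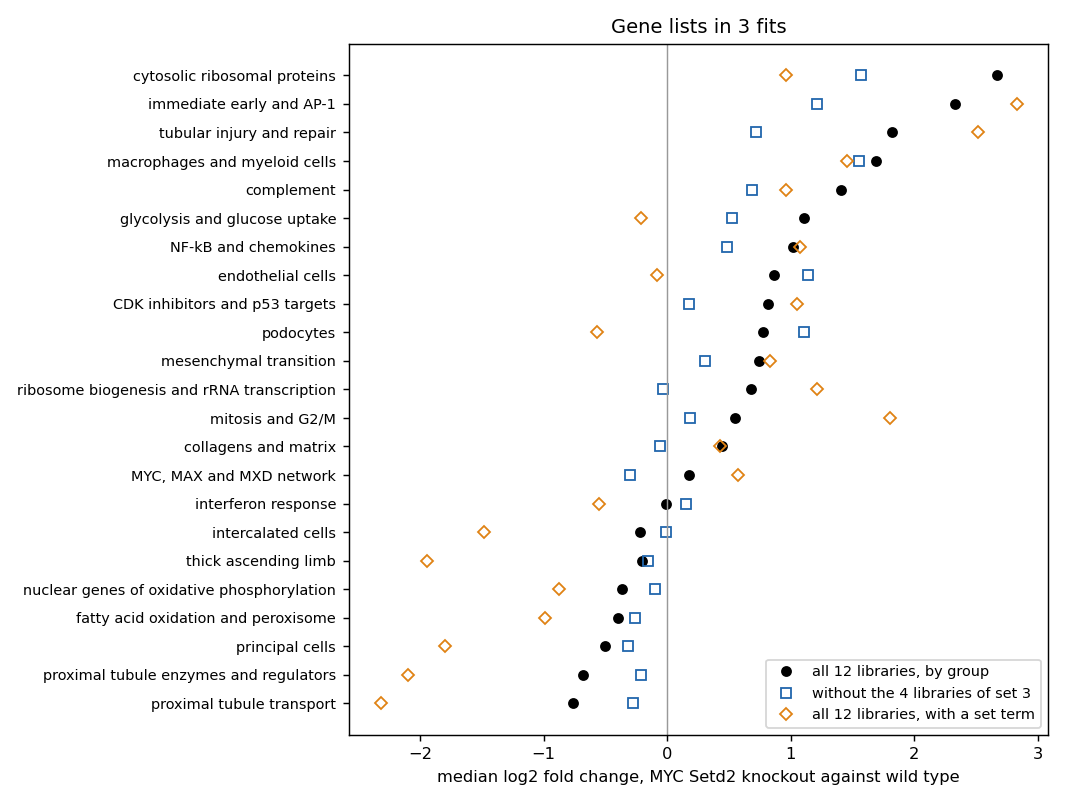
Median log2 fold change, MYC Setd2 knockout over wild type, of 23 gene lists in the fit of all 12 libraries (black), without the 4 set 3 libraries (blue) and with the set term (orange). The immediate early list is at 2.33, 1.22 and 2.83 in the 3 fits, while proximal tubule transport is at -0.76, -0.28 and -2.32 and glycolysis at 1.11, 0.52 and -0.21.

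Against the MYC group, which shares the MYC lesion and lacks deleted Setd2, MYC Setd2 knockout had 9 genes called higher (0.0529%) and 21 called lower (0.123%), with 1054 (6.19%) and 1141 (6.70%) at an unadjusted p under 0.05. The MYC group also lacks the floxed Setd2 allele, so the deletion and the floxed allele itself cannot be told apart in this comparison. Dusp1 and Klf2 were among the 9. Dusp1 was at 132, 89.7 and 173 CPM in MYC Setd2 knockout, against 23.5, 16.7 and 17.1 CPM in the MYC group, and rose by 2.79 ± 0.30 (SE, n = 3 per group, adjusted p in edgeR = 0.00913). Klf2 was at 38.5, 30.3 and 28.8 CPM in MYC Setd2 knockout, against 10.5, 7.89 and 7.7 CPM in the MYC group, and rose by 1.9 ± 0.28 (adjusted p = 0.0374). In wild type Dusp1 was at 32.3, 29.7 and 33.8 CPM, so the MYC libraries were below wild type and the MYC Setd2 knockout libraries above it. The call against MYC was lost in 4 of 16 alternatives for Dusp1 (adjusted p up to 0.225), among them those without MYC 2 or MYC 3. For Klf2 it was lost in 10 of 16 (up to 0.311), among them those without MYC 2, MYC 3, MYC Setd2 knockout 1 or MYC Setd2 knockout 2. Of the immediate early list the median log2 fold change was 1.67 in MYC Setd2 knockout against MYC and 2.25 against Setd2 knockout. Over all genes it was 0.05 and 0.01.

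Cyp26b1, which degrades retinoic acid, was at 67.8, 30.04 and 62.8 CPM in MYC Setd2 knockout, 1.64, 0.925 and 1.3 CPM in the MYC group, 35.3, 7.9 and 12.5 CPM in Setd2 knockout and 12.4, 9.66 and 27.6 CPM in wild type. MYC stood below the other 3 groups, and Cyp26b1 rose by 5.38 ± 0.70 against MYC (adjusted p in edgeR = 0.0247). Gbp2b, an interferon-induced GTPase, was at 14.4, 11.6 and 9.06 CPM in MYC Setd2 knockout, 0.422, 0.22 and 0.157 CPM in the MYC group and 7.78, 9.06 and 18.3 CPM in wild type. It rose by 5.45 ± 0.59 against MYC (adjusted p = 0.00913) and overlapped between MYC Setd2 knockout and wild type. Adm, which encodes the vasodilator adrenomedullin, rose by 2.06 ± 0.33 against MYC (adjusted p = 0.0477), with 14.3, 9.85 and 9.83 CPM in MYC Setd2 knockout, 3.91, 2.03 and 2.2 CPM in the MYC group and 7.43, 5.51 and 6.84 CPM in wild type.

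Several genes that fell against MYC were highest in the MYC libraries. Rec8 was at 3.63, 6.69 and 4.72 CPM in MYC Setd2 knockout, 31, 31.6 and 33.1 CPM in the MYC group, 9.9, 8.51 and 8.03 CPM in Setd2 knockout and 12.3, 11.1 and 11.2 CPM in wild type, and fell by 2.67 ± 0.25 against MYC (adjusted p in edgeR = 0.00373). Esr1, the estrogen receptor, was at 1.98, 2.9 and 5.11 CPM in MYC Setd2 knockout, 20.3, 29.6 and 35.8 CPM in the MYC group, 5.78, 5.72 and 4.48 CPM in Setd2 knockout and 7.27, 5.62 and 7.66 CPM in wild type, and fell by 3.09 ± 0.38 (adjusted p = 0.0189). In both genes the MYC libraries were the highest and the MYC Setd2 knockout libraries were below wild type.

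The same order held for Cyp7b1, an oxysterol hydroxylase, for the Wnt ligand gene Wnt9b and for E2f2, a factor of S phase entry. Cyp7b1 was at 2.64, 3.41 and 3.19 CPM in MYC Setd2 knockout, 210.1, 90.8 and 64.1 CPM in the MYC group and 38.2, 17.5 and 19.2 CPM in wild type, and fell by 5.3 ± 0.77 against MYC. Wnt9b was at 0.33, 0.757 and 0.604 CPM in MYC Setd2 knockout, 5.22, 5.68 and 12.4 CPM in the MYC group and 2.23, 2.62 and 1.77 CPM in wild type. E2f2 was at 1.32, 1.14 and 2.03 CPM in MYC Setd2 knockout, 7.02, 11.1 and 8.05 CPM in the MYC group and 2.35, 3.88 and 3.25 CPM in wild type (adjusted p = 0.0374 for Cyp7b1, 0.0374 for Wnt9b and 0.0374 for E2f2). Sptssb, a subunit of serine palmitoyltransferase, and Grhl3, an epidermal transcription factor, had 0 counts in all 3 MYC Setd2 knockout libraries. Sptssb was at 7.86, 3.53 and 19.5 CPM in the MYC group and 0.548, 0.601 and 1.14 CPM in wild type, and Grhl3 at 1.21, 1.01 and 3.02 CPM in the MYC group and 0.196, 0.218 and 0.313 CPM in wild type. A gene can pass the filter on low counts through 1 group alone, so the calls of these 2 genes against MYC may depend on their MYC level. Both were low in wild type, where a difference from 0 counts is uncertain.

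Of 16 alternatives, the call against MYC was lost in 7 for Cyp26b1, 5 for Gbp2b, 9 for Adm, 1 for Rec8, 6 for Esr1, 7 for Cyp7b1, 9 for Wnt9b and 10 for E2f2, and of 15 alternatives in 8 for Sptssb and 10 for Grhl3. All of these calls were lost in the fit of the compared libraries only. Without MYC 2 or MYC 3 they were lost for each of these genes other than Rec8. Without MYC 1 the count of genes called against MYC was 441, without MYC Setd2 knockout 3 it was 578, and without any 1 of the other 4 libraries it was 3 to 5. The mitosis list had a median of -1.98 against MYC, beside a median of 2.65 for MYC against wild type, and 0 of its 39 tested genes were called against MYC. Its median log2 CPM was 1.27, 3.26 and 3.48 in MYC 1, 2 and 3, against 0.97, 0.14 and 1.39 in MYC Setd2 knockout. MYC 1 was thus near MYC Setd2 knockout 1 and 3, and MYC 2 and MYC 3, both of set 3, were the highest. In MYC against wild type, 957 genes were called higher (5.62%) and 402 lower (2.36%). These comparisons share the MYC libraries.

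Against Setd2 knockout, which shares the deleted Setd2, 0 genes were called higher (0%) and 0 lower (0%), with 976 (5.73%) and 648 (3.81%) at an unadjusted p under 0.05. DESeq2 called 172 and limma-voom 0. The genes with the lowest p on the higher side were Phgdh, Dusp1 and Rps10. Phgdh was at 30.7, 22.5 and 32.6 CPM in MYC Setd2 knockout and 7.58, 3.98 and 8.3 CPM in Setd2 knockout (2.11 ± 0.34, SE, 3 libraries each, adjusted p in edgeR = 0.503), and Dusp1 at 132, 89.7 and 173 CPM in MYC Setd2 knockout and 35.9, 28.8 and 52.8 CPM in Setd2 knockout (1.75 ± 0.29, adjusted p = 0.503). Neither overlapped between these groups. On the lower side were Gm15190, ND6 and Spock3. Without Setd2 knockout 3, 411 genes were called.

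The combined effect less the sum of the single-lesion effects, each taken against wild type, was called above 0 for 1 gene (0.00588%) and below 0 for 1 gene (0.00588%), with 496 (2.91%) and 1243 (7.30%) at an unadjusted p under 0.05. Only the MYC group lacks the floxed Setd2 allele, so an interaction of the lesions and that allele cannot be told apart here. Ifi44l, an interferon-induced gene, was at 9.47, 4.42 and 6.87 CPM in MYC Setd2 knockout, 0.0528, 0 and 0.0393 CPM in the MYC group, 5.32, 4.65 and 3.11 CPM in Setd2 knockout and 3.4, 4.48 and 2.65 CPM in wild type. Its excess over the sum was 7.28 ± 0.82 on the log2 scale (adjusted p in edgeR = 0.0309), and the MYC libraries alone were near 0, where a fitted value depends on the prior count of the fit. Rpl29, a ribosomal protein gene with near-identical copies, was at 0.88, 0.757 and 2.03 CPM in MYC Setd2 knockout, 169.8, 163 and 179 CPM in the MYC group, 0.317, 0.349 and 1.15 CPM in Setd2 knockout and 0.196, 0.218 and 0.256 CPM in wild type. Its excess was -8.4 ± 0.76 (adjusted p = 0.0079), and the MYC libraries alone were high. For Dusp1 the excess was 2.49 ± 0.40 (adjusted p = 0.218). The 2 calls became 0 without any 1 of the wild type libraries and without MYC Setd2 knockout 1, 1 without Setd2 knockout 1, Setd2 knockout 2 or MYC 3, 5 without MYC 1 and 31 without MYC Setd2 knockout 3.

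**Figure D4:**
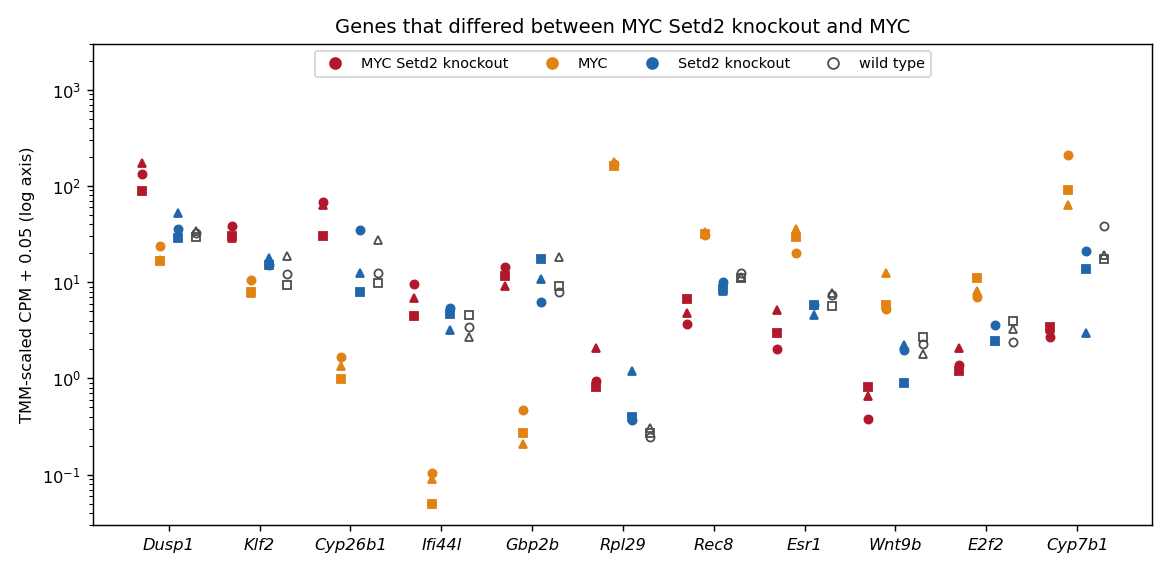
TMM-scaled CPM plus 0.05 on a log axis of 11 genes in the 12 libraries, in the order MYC Setd2 knockout, MYC, Setd2 knockout and wild type, with 1 point per library. In Ifi44l, Gbp2b and Cyp26b1 the MYC libraries lie below the other 3 groups and in Rpl29, Rec8, Esr1 and Wnt9b above them, while in Dusp1 the MYC Setd2 knockout libraries lie above all others.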

How the data were processed

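Primary tubule cells were profiled by poly(A)-selected, stranded, paired-end RNA sequencing, per the labels' protocols. The deposited table holds raw read counts per gene symbol with GRCm38 gene coordinates. Tools in the submitters' processing notes are HISAT2, StringTie, FastQC, MACS2 2.1.1, Trimmomatic 0.35 and cutadapt 1.9.1, with mm10 and GRCm38 as builds. The counting program, its strand setting and its treatment of shared reads are not stated in the sources used here, and overlapping genes and genes with near-identical copies are uncertain.

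The counts were tested as deposited with edgeR 4.0.16 in R 4.3.3 (TMM, filterByExpr, 1 coefficient for each of 4 groups, quasi-likelihood F test, 17019 genes). P-values were adjusted by Benjamini-Hochberg and genes under 0.05 are called. DESeq2 1.42.0, limma-voom (limma 3.58.1), other scalings and filters, a replicate block, terms for the mitochondrial rRNA set and for Y transcripts and left-out libraries were alternatives. The scripts were tested on simulated data. The members, the 47 gene lists (1094 tested genes) and the named-gene rule were chosen with earlier results of these data known. The rule took the 12 lowest-p or called genes per direction with at least 1 log2 CPM and no overlap between groups, leaving out predicted genes, the called or lowest-p members of each list, the targeted genes, and 6 genes of each other comparison. Genes named outside it (examples of list members that did not pass a test, genes added to the plots, Spock3 and the genes that followed Xist) were chosen after their values were seen. A gene's log2 fold change is from the fit, and list medians per library use a prior count of 2. The SE is the size of the log2 fold change divided by the square root of F in the quasi-likelihood test. It uses the spread estimated in the whole fit, not that of the compared libraries alone. Promoters come from the RefSeq table of GRCm38.p6. Some genes are not reported here.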

Additional observations from a re-analysis of the deposited data

Results flagged for a closer look

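In 2 genes the effect of the combined lesions differed from the sum of the single-lesion effects by a test of that difference over all genes. Rpl29 (chromosome 9, 106429432 to 106431573) differed by -8.4 on the log2 scale (adjusted p in edgeR = 0.0079), with 0.88, 0.757 and 2.03 CPM in MYC Setd2 knockout, 169.8, 163 and 179 CPM in the MYC group, 0.317, 0.349 and 1.15 CPM in Setd2 knockout and 0.196, 0.218 and 0.256 CPM in wild type. Ifi44l (chromosome 3, 151758737 to 151762891) differed by 7.28 (adjusted p = 0.0309), with 9.47, 4.42 and 6.87 CPM in MYC Setd2 knockout, 0.0528, 0 and 0.0393 CPM in the MYC group, 5.32, 4.65 and 3.11 CPM in Setd2 knockout and 3.4, 4.48 and 2.65 CPM in wild type. In both genes the 3 MYC libraries, 1 of set 2 and 2 of set 3, stood apart from the other 9 and close to each other, and the 3 other groups all carry the floxed Setd2 allele. Setd2 is on chromosome 9, as Rpl29 is. The part of the floxed allele in these values was not tested.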

How the results depend on the processing

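The count of genes higher in MYC Setd2 knockout against wild type was 0 and became 82 with the set term, 143 with set and Y terms, 277 with the compared libraries only, 1126 with DESeq2 and 1524 without set 3. The count of lower genes was 1 and became 0 with total counts, with no filter, with a replicate block, with limma-voom, with the Y-bearing MYC Setd2 knockout library only and when any 1 of the 6 libraries was left out (0 to 0), and 215, 410, 131, 476 and 867 in the order of settings given for higher genes. It stayed at 1 with RLE size factors and with a minimum of 1 CPM. Against MYC, 30 genes became 15 with total counts, 20 with no filter, 17 with the replicate block, 938 with the set term, 15 with set and Y terms, 0 with the compared libraries only, 765 with DESeq2, 6 with limma-voom and 3 to 578 with 1 library left out. Against Setd2 knockout, 0 became 1506 with the set term, 1749 with set and Y terms, 172 with DESeq2 and 0 to 411 with 1 library left out. The 2 genes beyond the sum became 1 with total counts, with a minimum of 1 CPM, with the replicate block, with set and Y terms and with limma-voom, 18 with the set term, 268 with DESeq2 and 0 to 31 with 1 library left out; a fit of the compared libraries only was not run for it. The cause of these changes was not tested.

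Setd2 turned to 0.13 on the log2 scale with total counts and to 0.028 with set and Y terms, and Myc to -0.53 with the Y-bearing library only. Of 939 values of named genes under alternatives, 653 kept direction and side of the threshold, 222 lost the call, 61 gained it and 3 reversed. Of 846 list medians, 716 moved by less than the spread between replicates. Scaling to total counts moved the median of all genes by 0.376 and turned the sign of 8 of 47 list medians. Replicate numbers did not pair the samples (correlations of deviations -0.018, 0.132 and 0.049), so the replicate block is only an alternative, with 0 genes higher and 0 lower against wild type. The wild type libraries were read more deeply than the MYC Setd2 knockout libraries, so low genes are less certain in MYC Setd2 knockout. The alternatives without set 3 and with the Y-bearing library only were chosen after seeing the data. With that 1 library, the MYC Setd2 knockout group is assumed to vary like the others.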

Other observations

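Cilia and polycystic kidney genes leaned to the lower side. Of 20 tested, 5 had an unadjusted p under 0.05 on the lower side and 1 on the higher side (6.80% and 13.9% of all genes). Without set 3, 4 of 20 fell and 0 rose, against 4.81% and 8.45% of all genes. Cep290, a transition zone protein of the cilium, was at 10.8, 18.7 and 6.32 CPM in MYC Setd2 knockout, against 26, 35 and 24.4 CPM in wild type, and Ift88, of the intraflagellar transport complex, at 18.5, 23.2 and 15.6 CPM in MYC Setd2 knockout, against 30.9, 32.2 and 30.9 CPM in wild type. Neither overlapped, and they fell without set 3, with log2 fold changes of -0.93 and -0.57 (adjusted p in edgeR = 0.0447 and 0.0445). Dnajb11, a chaperone needed for polycystin maturation, fell by 0.78 and Bicc1, an RNA-binding protein, fell by 0.92 in that fit, although Bicc1 at 79.1, 68 and 137 CPM in MYC Setd2 knockout and 118, 159 and 145 CPM in wild type overlapped through MYC Setd2 knockout 3. Cep290, Dnajb11 and Bicc1 overlap another gene of the table.

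Of 29 tested enzymes and readers of lysine 36 methylation and related SET-domain genes, 7 had an unadjusted p under 0.05 on the higher side and 0 on the lower side, against 13.9% and 6.80% of all genes. Without set 3, 1 of 28 rose, a smaller share than the 8.45% of all genes, and this was the reader gene Morf4l1, which rose by 1.26 (adjusted p in edgeR = 0.00465). It was at 69.998, 71.4 and 109 CPM in MYC Setd2 knockout, against 22, 33.2 and 34.2 CPM in wild type. Of 24 tested genes of NF-kB and chemokines, 11 had an unadjusted p under 0.05 on the higher side and 0 on the lower side. Without set 3, 4 of 23 rose and 1 fell, against 8.45% and 4.81% of all genes, and 0 were called with the set term. Cxcl2, a neutrophil attractant, was at 3.19, 0.252 and 10.2 CPM in MYC Setd2 knockout and 0.156, 0.109 and 0.0285 CPM in wild type, and Il1b at 10.2, 4.17 and 1.87 CPM in MYC Setd2 knockout and 1.17, 1.42 and 1.57 CPM in wild type. Both rose without set 3, by 4.18 and 2.38 (adjusted p = 0.0256 and 0.00505), beside the rise of the macrophage markers, whose part in these values was not tested.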
